A study of Mus musculus with 20 samples.

Results

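The MAP kinase phosphatases and 2 Sprouty-type inhibitors were followed in mouse bone marrow-derived macrophages across 4 treatment groups. The genes are the dual-specificity phosphatases Dusp1, Dusp2, Dusp3, Dusp4, Dusp5, Dusp6 and Dusp16 and the inhibitors Spry2 and Spred1, taken by their symbol in the platform annotation. These are 9 of 19057 annotated genes, carried by 21 of 45281 probes. A total of 17 of the 21 probes passed the detection filter (detection p below 0.05 on at least 5 arrays), and 8 of the 9 genes were among the 10018 tested. Each gene was represented by its detected probe of highest mean signal. The only probe of Spry2 was detected on 0 of 20 arrays, with normalised signals of 4.16 to 4.47 on the log2 scale, and it was not tested.

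RNA was hybridised to 20 Illumina mouse BeadChip arrays, 5 in each group. One group received cholesterol crystals (200 ug for every 1 mio cells, 3 h) and then 10 mM hydroxypropyl-beta-cyclodextrin, a sugar ring that binds cholesterol, for 6 h. The second group received the cyclodextrin alone for 6 h, the third the crystals alone for 3 h, and the fourth was untreated. All cells carry the strain label C57BL/6 and were grown from marrow over 6 days in 10% serum and M-CSF at 40 ng/ml. The series concerns liver X receptors and its design text names receptor-deficient mice and wild-type littermates, but the sample labels used here give no genotype. By the labels the 3 treated groups came from mice aged 2 to 5 months and the untreated group from mice aged 10 to 15 months. Age and treatment therefore cannot be told apart in comparisons with untreated cells. The time for which untreated and crystal-only cells were kept before lysis was not found in the labels, and time likewise cannot be told apart from cyclodextrin. The labels do not say whether replicates came from separate animals or cultures, so p-values measure the spread between these arrays. Without a block that spread includes the difference between chips of unlike inferred sex, given below. The rest of it may be technical.

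The median bead signal was 86.6 to 128 per array, and 33.9 to 39.5% of probes were detected. Precision is limited by the number of arrays. Arrays fell into 5 sets of 4, with 1 array of each group, found from an adjustment in the authors' table. Chips 1 and 5 carried sets 1 to 3, with Xist at 11.06 to 11.53 and Eif2s3y at 4.38 to 4.99 on the log2 scale. Chips 2, 3, 4 and 6 carried sets 4 and 5, with Xist at 4.44 to 4.76 and Eif2s3y at 10.17 to 10.90. High Xist is the pattern of female cells and high Eif2s3y that of male cells, so inferred sex and chip cannot be told apart. Of the macrophage markers listed, 8 of 8 with a probe were detected on every array. Their summed log2 signal was 84.1 to 88.2 after crystals then cyclodextrin, 85.6 to 91.2 after cyclodextrin, 82.9 to 86.8 after crystals and 89.3 to 92.3 in untreated cells. Both crystal groups thus lay wholly below the untreated range, while the range after cyclodextrin overlapped that of every other group. The part of this sum in the results below was not tested. Markers passed the detection filter for 4 of 4 stromal fibroblast, 2 of 2 B cell, 1 of 6 neutrophil, 1 of 5 T and NK cell, 0 of 5 dendritic cell, 0 of 4 mast cell and 0 of 2 erythroid genes with a probe. Flt3, Xcr1 and Cd209a of dendritic cells and Mpo and Ngp of neutrophils were detected on no array. The summed fibroblast signal spanned 23.9 to 30.2 after crystals then cyclodextrin, 24.8 to 28.9 after cyclodextrin, 24.4 to 31.1 after crystals and 25.0 to 30.8 in untreated cells, so these ranges overlapped.

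MAP kinases are switched on when a kinase phosphorylates a threonine and a tyrosine in their activation loop, and dual-specificity phosphatases switch them off by removing both phosphates. Many of these phosphatases are themselves induced by the kinases they act on, which makes them feedback brakes, and their transcripts are widely used as readouts of kinase signalling. The family differs in where its members sit and in which kinase they prefer. Dusp1, Dusp2, Dusp4 and Dusp5 are inducible nuclear enzymes, Dusp6 is a cytoplasmic enzyme directed at ERK, and Dusp16 acts mainly on JNK and p38. Dusp3 is a small atypical member without the kinase-binding domain of the others. Sprouty and Spred proteins act further upstream, at Ras and Raf. In macrophages, Dusp1 is known for limiting cytokine output after Toll-like receptor signals, and M-CSF itself signals through ERK.

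Promoters are shown for Dusp2 and Dusp16, whose levels moved most closely together, and for Dusp1 and Dusp5, which hold the rarer motifs. RefSeq start sites on GRCm38.p6 were matched for 8 of the 9 genes, and each window runs from 250 bases before to 50 bases after the start. Capitals mark the cyclic AMP response element TGACGTCA, its core TGACG, the AP-1 site TGANTCA and the serum response element, each searched on both strands. A full response element holds the core on both strands by construction. The Dusp2 window is chr2:127335909-127336208 on the plus strand, directly before and into the gene at chr2:127336159-127338377. The Dusp16 window is chr6:134792579-134792878 on the minus strand and lies inside the annotated gene span, chr6:134715468-134807063. The Dusp1 window is chr17:26508423-26508722 on the minus strand, at the start of the gene at chr17:26505591-26508472. The Dusp5 window is chr19:53528895-53529194 on the plus strand, at the start of the gene at chr19:53529145-53541809.
Dusp2: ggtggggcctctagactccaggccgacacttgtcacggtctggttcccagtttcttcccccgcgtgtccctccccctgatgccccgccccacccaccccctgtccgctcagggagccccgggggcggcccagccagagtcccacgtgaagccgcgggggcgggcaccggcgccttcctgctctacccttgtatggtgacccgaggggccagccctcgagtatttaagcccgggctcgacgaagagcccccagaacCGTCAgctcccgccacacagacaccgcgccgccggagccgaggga
Dusp16: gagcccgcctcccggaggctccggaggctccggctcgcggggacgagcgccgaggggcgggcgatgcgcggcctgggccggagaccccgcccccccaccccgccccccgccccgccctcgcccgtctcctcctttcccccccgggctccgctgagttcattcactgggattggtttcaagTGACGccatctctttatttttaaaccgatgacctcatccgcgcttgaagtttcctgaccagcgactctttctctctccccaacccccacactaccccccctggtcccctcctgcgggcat
Dusp1: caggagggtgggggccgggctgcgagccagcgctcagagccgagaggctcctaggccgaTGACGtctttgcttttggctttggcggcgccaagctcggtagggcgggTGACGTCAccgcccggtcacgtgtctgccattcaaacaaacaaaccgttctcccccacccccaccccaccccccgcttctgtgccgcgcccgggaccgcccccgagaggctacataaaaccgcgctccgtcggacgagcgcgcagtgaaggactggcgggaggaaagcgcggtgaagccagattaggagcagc
Dusp5: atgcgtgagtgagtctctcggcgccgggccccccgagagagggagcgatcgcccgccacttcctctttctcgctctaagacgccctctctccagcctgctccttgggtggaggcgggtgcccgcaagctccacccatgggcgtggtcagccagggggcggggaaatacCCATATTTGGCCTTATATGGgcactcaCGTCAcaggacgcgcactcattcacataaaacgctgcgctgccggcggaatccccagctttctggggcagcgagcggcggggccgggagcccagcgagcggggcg

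Dusp2, Dusp5 and Dusp16 each hold 1 core, which 20.8% of 32851 promoters of the same length hold. Dusp1 holds the full element 143 bases before its start, present in 1.79% of promoters, and a further core. Dusp5 holds 2 adjacent serum response elements, CCATATTTGG from 82 and CCTTATATGG from 72 bases before its start, and 1.63% of promoters hold at least 1. The AP-1 letters, present in 7.81% of promoters, were in none of the 8 windows. The kappa B letters (GGG, any 5 bases, CC), which are not capitalised, occur in 50.8% of promoters and in every one of the 8 windows except that of Dusp16. Both kappa B matches of Dusp5 overlap the first bases of its first serum response element. These matches describe letters in a window and not binding.

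After crystals alone, Dusp4 and Dusp3 rose and Dusp6, Dusp5 and Spred1 fell, 5 of 8 genes tested against untreated cells. In this comparison 17.5% of all genes tested were called, 8.49% higher and 8.97% lower. A gene is called here when its limma p, two-sided and adjusted by Benjamini-Hochberg over all 10018 genes, is below 0.05. The median log2 change was -0.15 over the 8 genes and -0.017 over all genes. With the set of arrays as a block, Dusp1 also fell, and 27.7% of all genes were called. With scale in place of quantile normalisation Dusp4 passed (adjusted p = 0.0296) and the other 4 did not (adjusted p of 0.0572 to 0.181). On chips 2, 3, 4 and 6 alone none of the 5 passed (adjusted p of 0.0867 to 0.941). Dusp1 passed there (-0.67, adjusted p = 0.0427), where 2.83% of all genes were called.

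After cyclodextrin alone, Dusp2 and Dusp16 rose and 0 of 8 fell, with 1.13% of all genes called, 0.848% higher and 0.279% lower. The median log2 change was 0.38 over the 8 genes and -0.017 over all genes. With the set block, 5 of 8 were called, Dusp4 and Spred1 also rising and Dusp6 falling, against 4.12% of all genes, 2.57% higher and 1.56% lower. With only the compared groups in the model neither Dusp2 nor Dusp16 passed (adjusted p of 0.0964 and 0.0784), and on chips 1 and 5 alone Dusp16 did not (0.109).

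Crystals then cyclodextrin left Dusp4 and Dusp2 higher and Dusp6 and Dusp5 lower than in untreated cells, with 20.2% of all genes called, 9.06% higher and 11.1% lower. With the set block Dusp16 and Spred1 also rose, and 31.8% of all genes were called. The median log2 change was 0.27 over the 8 genes and -0.026 over all genes. The Dusp5 call was lost with scale normalisation (adjusted p = 0.0573), and without a detection filter those of Dusp2 (0.0505) and Dusp5 (0.0807) were lost. These 3 comparisons share the same untreated arrays, so they are not independent of each other.

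Cyclodextrin added to crystals, set against crystals alone, called 0 of 8 genes and 0 of 10018 genes in limma without a block, or 0% of all genes. At an unadjusted p below 0.05 there were 815 genes, of which 1 was among the 8, and the lowest adjusted p was 0.0912. With the set block Spred1 rose, and 1.80% of all genes were called, 1.29% higher. Against cyclodextrin alone, crystals then cyclodextrin raised Dusp3, with 9.20% of all genes called, 4.56% higher. With the set block Dusp4 also rose and Dusp1 fell in that comparison, against 18.5% of all genes. The Dusp3 call was lost with scale normalisation (0.50, adjusted p = 0.287) and on chips 2, 3, 4 and 6 alone (0.59, adjusted p = 0.103). The interaction, which asks whether the cyclodextrin change differed with crystals present, called 0 of 8 genes and 4 genes in all (0.0399%), or 14 genes (0.140%) with the set block. At an unadjusted p below 0.05 there were 230 genes, of which 2 were among the 8. These were Dusp2, whose interaction was -1.47 ± 0.55 (SE), and Dusp6, whose interaction was 0.75 ± 0.33 (SE), and both had an adjusted limma p of 1.00.

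**Figure D1:**
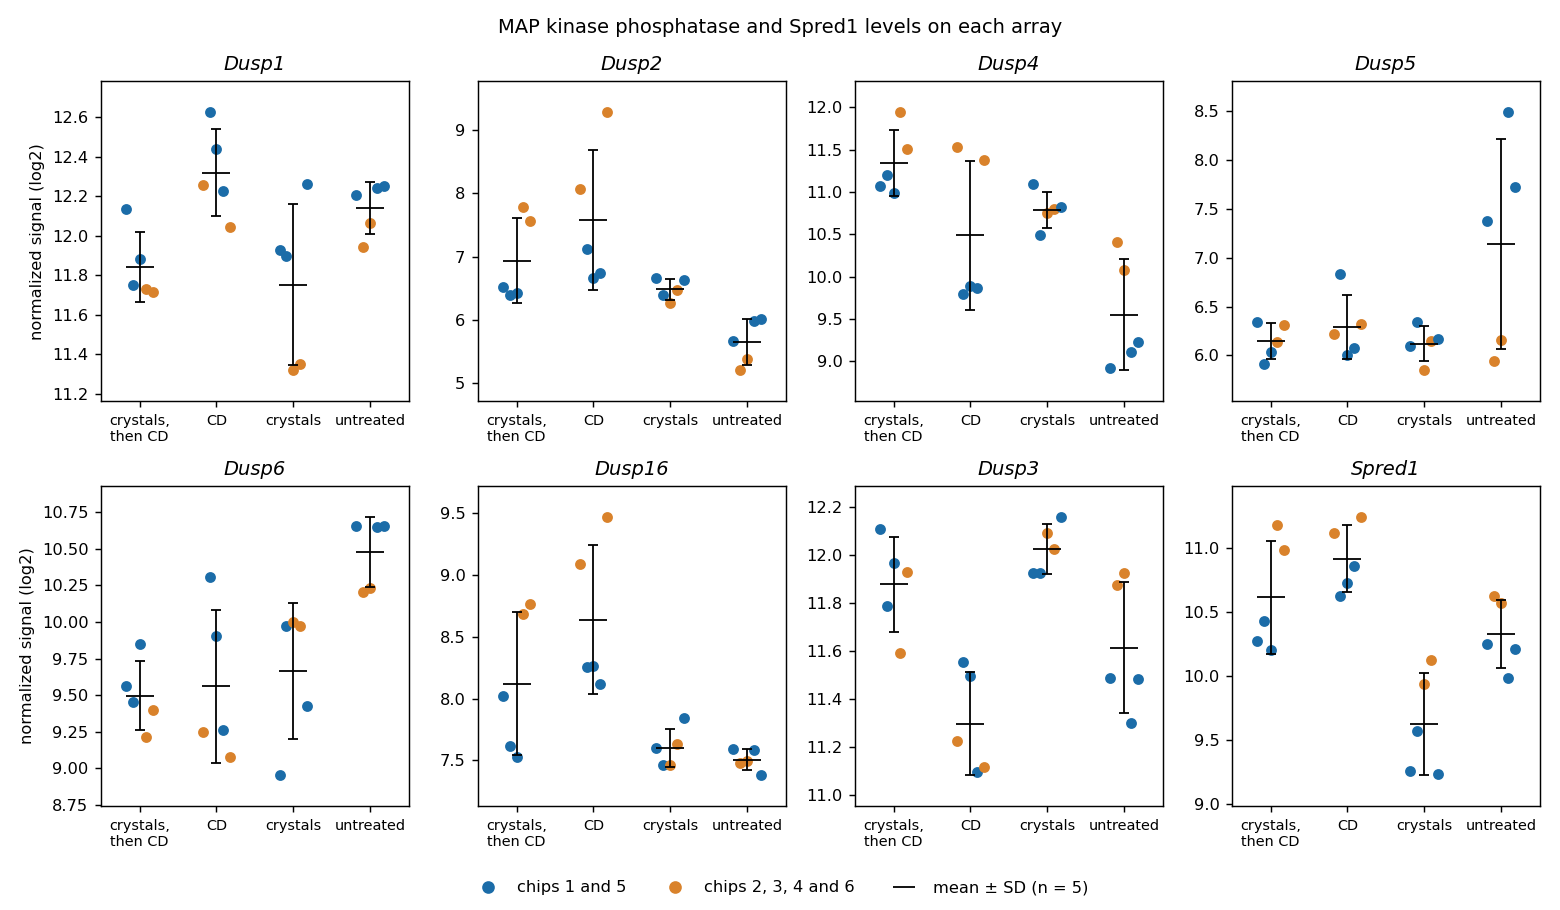
Normalised log2 signal of the 8 tested genes on each of 20 arrays, by treatment group, with the mean and SD of 5 arrays as bars and the chip batch as colour. Dusp4 on both crystal groups and Dusp2 on all treated groups lie above the untreated arrays, and Dusp5 is high on the untreated arrays of chips 1 and 5.

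**Figure D2:**
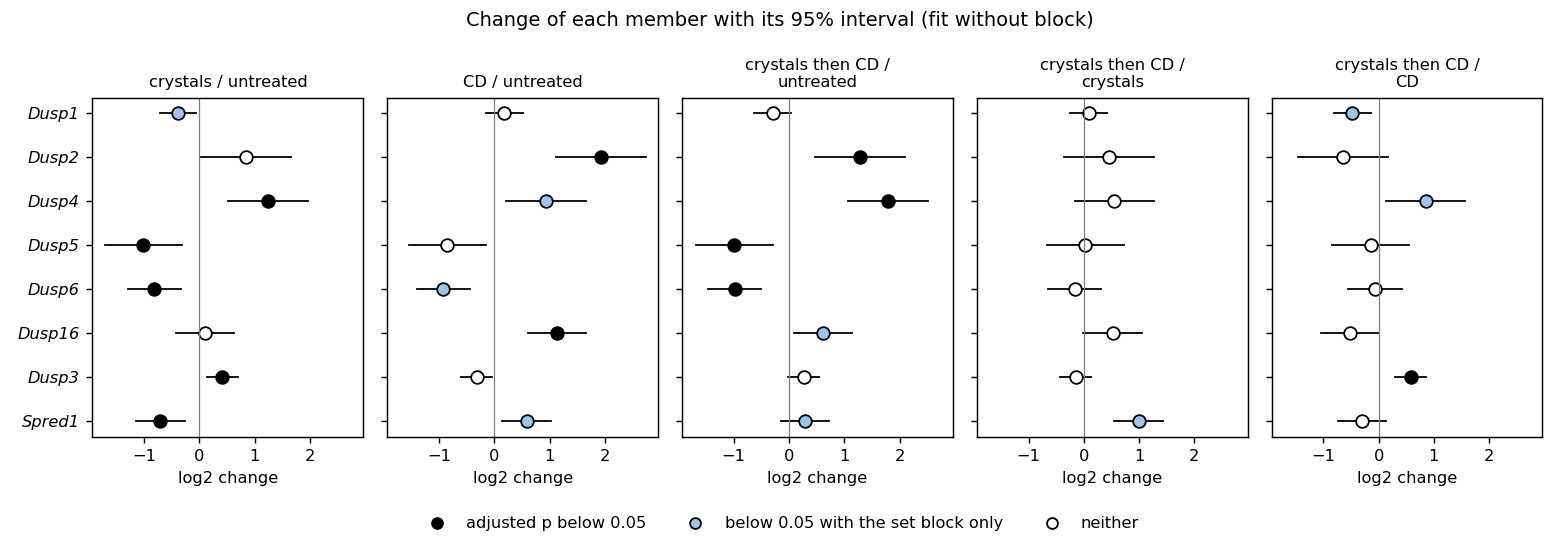
The log2 change of each gene in the 5 comparisons, with its 95% interval from limma without a block. Filled points passed an adjusted p of 0.05, pale points passed it with the set block only, and open points passed neither.

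Dusp4, an inducible nuclear phosphatase, had the largest rise with crystals among the 8 genes. It lies at chr8:34807610-34819894 and its product acts on ERK and JNK. Dusp4 read 11.07, 11.20, 10.98, 11.94 and 11.51 after crystals then cyclodextrin and 11.53, 9.79, 9.89, 9.87 and 11.37 after cyclodextrin (normalised log2 signal, replicates 1 to 5). It read 11.09, 10.49, 10.76, 10.80 and 10.82 after crystals and 8.92, 10.41, 10.08, 9.11 and 9.23 in untreated cells. Every array of both crystal groups was above every untreated array, while only replicates 1 and 5 of the cyclodextrin group were. Both of these were on chips 2, 3, 4 and 6, and within each chip batch every cyclodextrin array was above every untreated one. The change was 1.79 ± 0.34 (SE) for crystals then cyclodextrin against untreated cells, or 3.46-fold, with an adjusted p of 0.00118. Crystals alone gave 1.24 ± 0.34 (SE), or 2.36-fold, with an adjusted p of 0.0164. Within chips 1 and 5 the crystal change was 1.71 (adjusted p = 2.20e-05), and within the other chips it was 0.53 (adjusted p = 0.206). Cyclodextrin alone gave 0.94 ± 0.34 (SE), whose adjusted p was 0.267 without a block and 0.0262 with the set block. This change was positive in 5 of 5 sets. It was 0.76 within chips 1 and 5 (adjusted p = 0.0711) and 1.20 within the other chips (adjusted p = 0.00440). Set against cyclodextrin, crystals then cyclodextrin gave 0.85 ± 0.34 (SE), with an adjusted p of 0.137 without a block and 0.0147 with the set block. That comparison passed without a block when CD replicate 1 (1.11, adjusted p = 0.0374) or CD replicate 5 (1.07, adjusted p = 0.0481) was left out.

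Dusp2, a phosphatase of immune cells at chr2:127336159-127338377, had the largest rise with cyclodextrin among the 8 genes. Dusp2 read 6.53, 6.40, 6.42, 7.79 and 7.56 after crystals then cyclodextrin and 8.08, 7.12, 6.67, 6.75 and 9.29 after cyclodextrin. It read 6.67, 6.39, 6.27, 6.47 and 6.63 after crystals and 5.67, 5.21, 5.39, 5.98 and 6.02 in untreated cells. All 3 treated groups lay wholly above the untreated arrays, and within both cyclodextrin groups the arrays of chips 2, 3, 4 and 6 were the highest. Cyclodextrin gave 1.93 ± 0.39 (SE), or 3.80-fold, against untreated cells with an adjusted p of 0.0167. The call was lost without con replicate 2 (1.81, adjusted p = 0.0514), con replicate 3 (1.86, adjusted p = 0.0511) or CD replicate 1 (1.80, adjusted p = 0.0648). Crystals then cyclodextrin gave 1.29 ± 0.39 (SE), or 2.44-fold, with an adjusted p of 0.0241. With the chip as a block this was 0.91, with an adjusted p of 0.0894, and the call was also lost without con replicate 2 (1.18, adjusted p = 0.0557), CD-cc replicate 4 (1.08, adjusted p = 0.0736) or CD-cc replicate 5 (1.13, adjusted p = 0.0646). Crystals alone gave 0.83 ± 0.39 (SE) and did not pass without a block (adjusted p = 0.158) or with the set block (0.102), although its arrays did not overlap with the untreated ones. The crystal change was positive in 5 of 5 sets. It was 0.67 within chips 1 and 5 (adjusted p = 0.00900) and 1.07 within the other chips (adjusted p = 0.135). Without background correction the 2 cyclodextrin changes were 1.07 and 0.63 and neither passed.

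Dusp1 at chr17:26505591-26508472 encodes the nuclear phosphatase that prefers p38 and JNK. Dusp1 read 12.14, 11.75, 11.88, 11.73 and 11.71 after crystals then cyclodextrin and 12.26, 12.62, 12.44, 12.23 and 12.04 after cyclodextrin. It read 11.93, 11.90, 11.32, 11.35 and 12.26 after crystals and 12.21, 11.94, 12.06, 12.24 and 12.25 in untreated cells. All groups overlapped, with replicates 3 and 4 of the crystal group lowest. Crystals gave -0.39 ± 0.16 (SE), with an adjusted p of 0.106 without a block, 0.0164 with the set block and 0.0292 without cc replicate 5, where the change was -0.52. The crystal change was -0.20 within chips 1 and 5 (adjusted p = 0.418) and -0.67 within the other chips (adjusted p = 0.0427). The limma test of that difference had an adjusted p of 0.616. Set against cyclodextrin, crystals then cyclodextrin gave -0.48 ± 0.16 (SE), with an adjusted p of 0.0699 without a block and 0.00736 with the set block. That comparison passed without a block when cc replicate 5 (-0.48, adjusted p = 0.0411) or CD replicate 5 (-0.54, adjusted p = 0.0425) was left out. Cyclodextrin alone gave 0.18 ± 0.16 (SE, adjusted p = 0.821).

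Dusp5 at chr19:53529145-53541809 encodes the nuclear phosphatase specific for ERK. Dusp5 read 6.34, 5.91, 6.04, 6.14 and 6.31 after crystals then cyclodextrin and 6.22, 6.83, 6.00, 6.08 and 6.32 after cyclodextrin. It read 6.10, 6.34, 5.85, 6.14 and 6.17 after crystals and 7.37, 5.95, 6.16, 8.49 and 7.72 in untreated cells. Only untreated replicates 1, 4 and 5 stood above the range of the treated arrays, and all 3 were on chips 1 and 5. Crystals gave -1.02 ± 0.33 (SE, adjusted p = 0.0402) and crystals then cyclodextrin -0.99 ± 0.33 (SE, adjusted p = 0.0410) against untreated cells. Within chips 1 and 5 these changes were -1.66 and -1.76, and within the other chips they were -0.056 and 0.17. The crystal call was lost when any 1 of 7 arrays was left out, con replicates 1, 4 and 5 and cc replicates 1, 3, 4 and 5, with an adjusted p of 0.0611 to 0.124. The call for crystals then cyclodextrin was lost without any 1 of 8 arrays, con replicates 1, 4 and 5 and CD-cc replicates 1 to 5, with an adjusted p of 0.0505 to 0.122. Without con replicate 4 the 2 changes were -0.68 and -0.65. Cyclodextrin alone gave -0.85 ± 0.33 (SE) and did not pass (adjusted p = 0.319).

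Dusp6 at chr10:99263231-99267489, the cytoplasmic phosphatase directed at ERK, had a lower mean in all 3 treated groups than in untreated cells. Dusp6 read 9.56, 9.45, 9.85, 9.22 and 9.40 after crystals then cyclodextrin and 9.25, 10.31, 9.90, 9.26 and 9.08 after cyclodextrin. It read 8.95, 9.97, 10.00, 9.97 and 9.42 after crystals and 10.66, 10.20, 10.23, 10.65 and 10.66 in untreated cells. Both crystal groups lay wholly below the untreated arrays, and replicate 2 alone of the cyclodextrin group reached their range. Crystals then cyclodextrin gave -0.98 ± 0.23 (SE), with an adjusted p of 0.00479 without a block and 0.0642 at -0.81 with the chip as a block. Crystals alone gave -0.82 ± 0.23 (SE, adjusted p = 0.0184), a call lost without cc replicate 1 (-0.64, adjusted p = 0.0638) or cc replicate 5 (-0.76, adjusted p = 0.0521). The crystal change was -1.20 within chips 1 and 5 and -0.23 within the other chips. Cyclodextrin gave -0.92 ± 0.23 (SE), with an adjusted p of 0.0592 without a block and 0.0120 with the set block. It passed without a block when CD replicate 2 (-1.11, adjusted p = 0.0115) or cc replicate 1 (-0.92, adjusted p = 0.0385) was left out. The cyclodextrin change was negative in 5 of 5 sets. It was -0.83 within chips 1 and 5 (adjusted p = 0.432) and -1.05 within the other chips (adjusted p = 0.00237).

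Dusp16 at chr6:134715468-134807063 acts on JNK and p38 and rose with cyclodextrin. Dusp16 read 8.02, 7.61, 7.53, 8.68 and 8.76 after crystals then cyclodextrin and 9.09, 8.25, 8.26, 8.11 and 9.47 after cyclodextrin. It read 7.60, 7.46, 7.46, 7.64 and 7.84 after crystals and 7.60, 7.48, 7.50, 7.58 and 7.38 in untreated cells. Every cyclodextrin array was above every untreated one, and the crystal arrays overlapped the untreated range. Cyclodextrin gave 1.13 ± 0.25 (SE), or 2.19-fold, with an adjusted p of 0.0308, while crystals gave 0.094 ± 0.25 (SE, adjusted p = 0.868). The cyclodextrin call was lost when any 1 of 7 arrays was left out, con replicates 1 to 5 and CD replicates 1 and 5, with changes of 0.92 to 1.15 and an adjusted p of 0.0602 to 0.119. Crystals then cyclodextrin gave 0.61 ± 0.25 (SE), with an adjusted p of 0.0938 without a block, 0.0303 with the set block and 0.0429 without CD-cc replicate 3, where the change was 0.76.

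Dusp3 at chr11:101971141-101987013, the atypical phosphatase that acts on ERK and JNK, rose with crystals. Dusp3 read 12.11, 11.79, 11.97, 11.59 and 11.93 after crystals then cyclodextrin and 11.22, 11.56, 11.50, 11.10 and 11.12 after cyclodextrin. It read 11.93, 11.92, 12.09, 12.03 and 12.16 after crystals and 11.49, 11.87, 11.93, 11.30 and 11.48 in untreated cells. Every array given crystals then cyclodextrin was above every cyclodextrin array, whereas crystal and untreated arrays overlapped at the edge. Crystals then cyclodextrin against cyclodextrin gave 0.58 ± 0.13 (SE), or 1.49-fold, with an adjusted p of 0.00874 without a block and 0.159 with the chip as a block. Crystals against untreated cells gave 0.41 ± 0.13 (SE, adjusted p = 0.0399), which became 0.0760 with the chip as a block. That call was also lost without any 1 of 7 arrays, con replicates 1, 4 and 5 and cc replicates 1, 3, 4 and 5, with an adjusted p of 0.0562 to 0.124. The crystal change was 0.58 within chips 1 and 5 (adjusted p = 0.0188) and 0.16 within the other chips (adjusted p = 0.716). Cyclodextrin alone gave -0.32 ± 0.13 (SE, adjusted p = 0.388). This change was -0.040 within chips 1 and 5 (adjusted p = 0.993) and -0.73 within the other chips (adjusted p = 0.0216). The limma test of that difference had an adjusted p of 0.274.

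Spred1 at chr2:117121071-117182279, which holds back Ras signalling together with neurofibromin, fell with crystals. Spred1 read 10.27, 10.43, 10.21, 11.18 and 10.99 after crystals then cyclodextrin and 11.12, 10.63, 10.73, 10.87 and 11.25 after cyclodextrin. It read 9.26, 9.57, 9.94, 10.13 and 9.23 after crystals and 10.25, 10.62, 10.57, 9.99 and 10.21 in untreated cells. Both cyclodextrin groups lay wholly above the crystal group, and the cyclodextrin group lay above the untreated arrays by a narrow margin. Crystals gave -0.70 ± 0.21 (SE) against untreated cells, with an adjusted p of 0.0247. This call was lost without con replicate 2 (-0.63, adjusted p = 0.0600), con replicate 3 (-0.64, adjusted p = 0.0572), cc replicate 1 (-0.61, adjusted p = 0.0759) or cc replicate 5 (-0.61, adjusted p = 0.0777). It was also lost with scale normalisation (-0.59, adjusted p = 0.145) and on chips 2, 3, 4 and 6 alone (-0.57, adjusted p = 0.0867). Crystals then cyclodextrin against crystals gave 0.99 ± 0.21 (SE), or 1.99-fold, with an adjusted p of 0.124 without a block, 2.67e-04 with the set block and 0.0258 with the chip as a block. The change was 0.95 within chips 1 and 5 and 1.05 within the other chips, and it was positive in 5 of 5 sets. Cyclodextrin gave 0.59 ± 0.21 (SE) against untreated cells, with an adjusted p of 0.254 without a block and 0.00386 with the set block.

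Groups of 5 arrays that did not overlap were counted without reference to the model. Against untreated cells, crystals then cyclodextrin separated Dusp2, Dusp4 and Dusp6, as 14.9% of all genes did. Cyclodextrin separated Dusp2, Dusp16 and Spred1, all higher, against 3.12% of all genes and 1.91% in that direction. Crystals separated Dusp2, Dusp4 and Dusp6, against 14.9% of all genes. Against crystals, crystals then cyclodextrin separated Spred1, as 1.38% of all genes were (0.888% higher). Against cyclodextrin it separated Dusp3, as 7.49% of all genes were (4.01% higher). In whole-culture RNA, fewer cells of a type and less RNA per cell cannot be told apart.

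The chip batches differed in the size of several changes. Cyclodextrin raised Dusp2 by 0.96 on chips 1 and 5 and by 3.38 on the other chips, and the limma test of that difference had an adjusted p of 0.00205. Dusp16 changed by 0.69 with cyclodextrin on chips 1 and 5 and by 1.79 elsewhere, a difference with an adjusted p of 0.0350. Crystals then cyclodextrin against untreated cells gave 0.56 and 2.38 for Dusp2 (adjusted p of the difference 0.0168) and 0.20 and 1.23 for Dusp16 (adjusted p of the difference 0.0373), again with chips 1 and 5 named first. By its brightest probe untreated Dusp16 averaged 7.52 on chips 1 and 5 and 7.49 on the others, so for that probe the difference lay in the treated arrays. The dimmer detected Dusp16 probes averaged 7.20 and 6.72 in untreated cells on chips 1 and 5, and 6.83 and 6.34 on the others. For these probes part of the difference lay in the untreated arrays. Untreated Dusp5 averaged 7.86 on chips 1 and 5 and 6.05 on the others, so there the difference lay in the untreated arrays. Each batch holds only 3 or 2 arrays of a group.

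**Figure D3:**
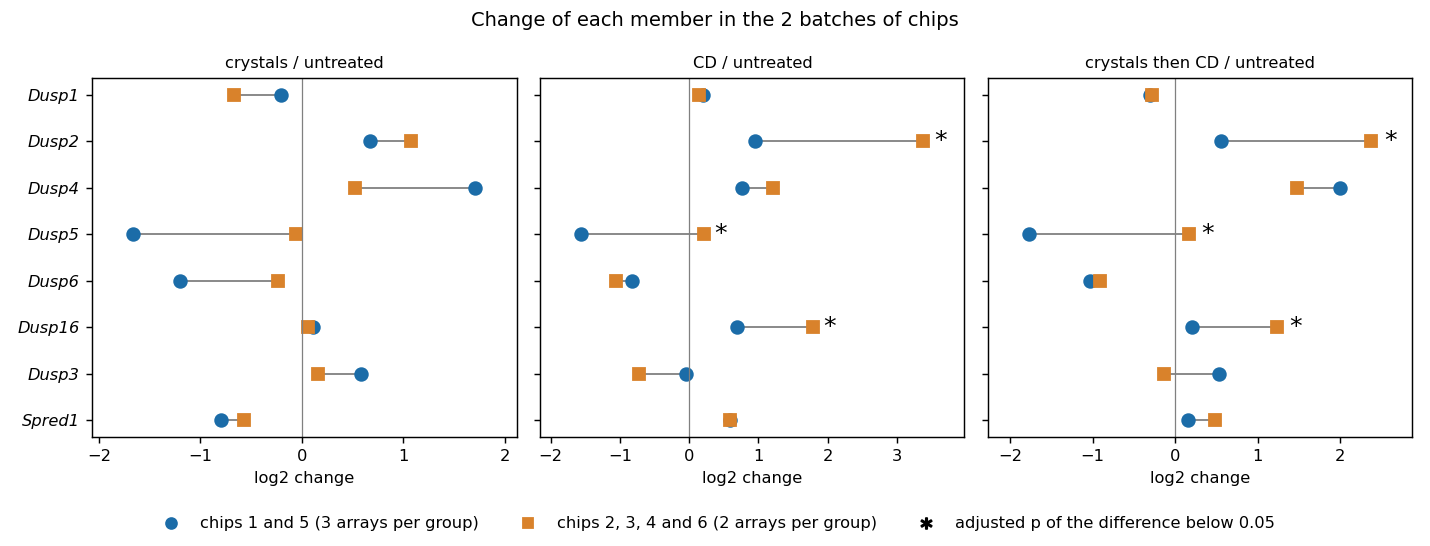
The log2 change of each gene against untreated cells, drawn separately for chips 1 and 5 (3 arrays per group) and for chips 2, 3, 4 and 6 (2 arrays per group). Asterisks mark an adjusted p of the difference below 0.05, which Dusp2, Dusp5 and Dusp16 reached in both cyclodextrin comparisons.

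Further probes of a gene were compared by their changes only. For Dusp4, 3 detected probes gave 1.06 to 1.24 with crystals and 1.79 to 1.96 with crystals then cyclodextrin, all past an adjusted p of 0.05 over all detected probes. For Dusp2 the second probe gave 1.36 ± 0.31 (SE, adjusted p = 0.0394) with cyclodextrin, against 1.93 for the brightest. That second probe was detected on 5 of 5 cyclodextrin arrays and on 1 of 5 untreated arrays, so its change was measured largely against background. The brightest Dusp2 probe was detected on 5 of 5 untreated arrays but was dim there. Its bead signals were 111 to 155, on arrays with a median bead signal of 93.9 to 121, so its changes also rest on low untreated values. For Dusp16 the other 2 probes gave 0.88 ± 0.23 (SE, adjusted p = 0.0889) and 1.14 ± 0.20 (SE, adjusted p = 0.00627) with cyclodextrin. The second Dusp6 probe gave -1.07 ± 0.26 (SE, adjusted p = 0.00652) with crystals then cyclodextrin and -0.64 ± 0.26 (SE, adjusted p = 0.109) with crystals. With crystals then cyclodextrin a dimmer Dusp16 probe passed (0.71, adjusted p = 0.0159), while the brightest (0.61, 0.101) and the other (0.48, 0.175) did not. Against cyclodextrin a dimmer Dusp4 probe passed (1.07, adjusted p = 0.0445), while the brightest (0.85, 0.151) and the other (1.07, 0.0548) did not. Probes of 1 gene thus fell on both sides of the threshold in these comparisons of Dusp16 and Dusp4 and for Dusp6 with crystals. They did so for Dusp3 as well. The 3 dimmer Dusp3 probes gave 0.57 to 0.75 for crystals then cyclodextrin against untreated cells, all past the threshold, where the brightest probe gave 0.26 (adjusted p = 0.202). With cyclodextrin alone they gave -0.13 to 0.12, where the brightest gave -0.32, and none passed. In crystals then cyclodextrin against cyclodextrin all 4 Dusp3 probes passed, at 0.57 to 0.70.

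**Figure D4:**
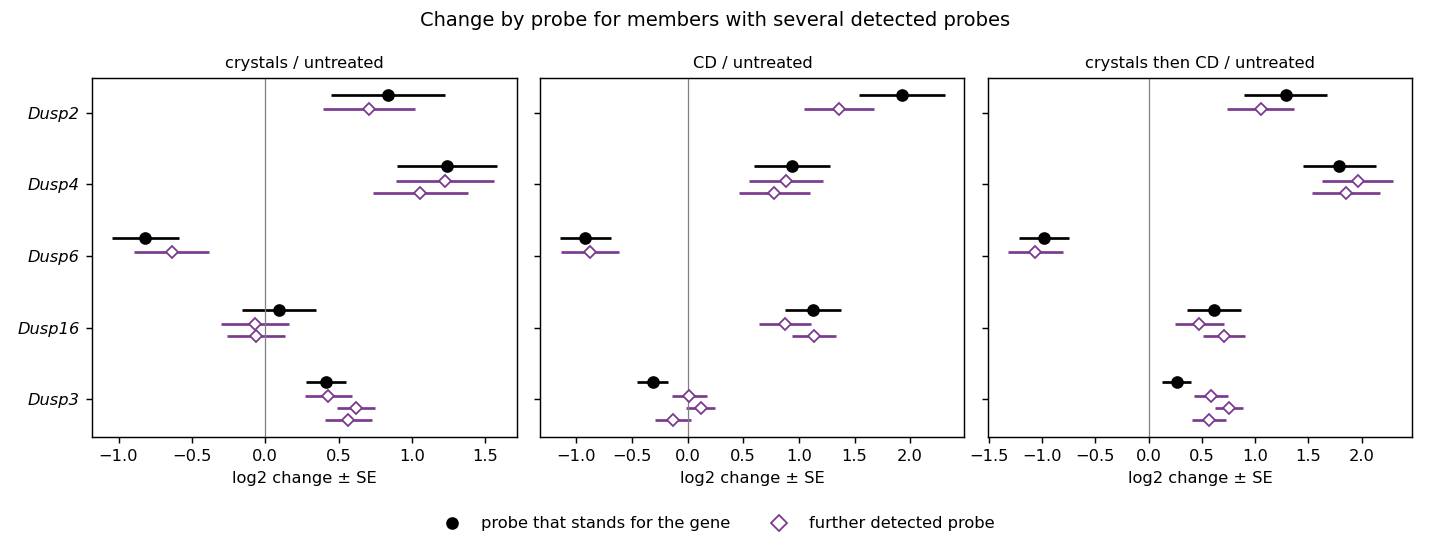
The log2 change against untreated cells, with its SE, for each detected probe of the genes with several. The Dusp2 probes lie apart with cyclodextrin (1.93 and 1.36), and the brightest Dusp3 probe (filled) sits below its 3 dimmer probes in both cyclodextrin comparisons.

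Across the 20 arrays the 8 genes formed no single pattern. Dusp2 and Dusp16 had the highest Pearson r of any pair, 0.92, and Dusp4 and Dusp6 the lowest, -0.82. Spred1 had an r of 0.71 with Dusp16, and Dusp5 one of 0.64 with Dusp6 and -0.69 with Dusp4. These values describe 20 arrays that share treatment and chip. Among 9735 named genes, those most like Dusp16 were Socs3, Hcar2 and Ccl3 (r of 0.96, 0.96 and 0.94), and those most like Dusp2 were Plagl2, Dusp16 and Ccl3 (0.93, 0.92 and 0.91). For Dusp4 they were Ptpre, Car13 and Sqstm1 (0.94 each), for Dusp6 Thbd, Sbk1 and Gcnt1 (0.93, 0.93 and 0.91) and for Dusp5 Fosl2, Tlr5 and Grasp (0.91, 0.91 and 0.89). For Dusp3 they were Aatk, Pi4ka and Flvcr1 (0.94, 0.92 and 0.91), for Spred1 Susd6, Fnbp1l and Fyb (0.93, 0.92 and 0.90) and for Dusp1 Bbx, Zfp2 and Atg9b (0.89, 0.88 and 0.85).

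The rest of the MAP kinase pathway was counted over 9 lists of 90 genes, of which 56 were tested. With crystals 5 of 56 rose and 8 fell, with cyclodextrin 0 rose and 1 fell, and with crystals then cyclodextrin 5 rose and 9 fell, each against untreated cells, where 17.5%, 1.13% and 20.2% of all genes were called. With the set block the counts were 6 and 10, 3 and 2, and 8 and 13, in the same order, against 27.7%, 4.12% and 31.8% of all genes. Against crystals alone, crystals then cyclodextrin called 0 of 56 without a block (0% of all genes), and with the set block it raised 3 and lowered 1 (1.80% of all genes). Against cyclodextrin alone it raised 1 and lowered 4 without a block (9.20% of all genes), and raised 3 and lowered 8 with the set block (18.5%). The interaction called 0 of 56 in both. On chips 2, 3, 4 and 6 alone, cyclodextrin raised 9 and lowered 3 (7.10% of all genes called), and crystals raised 2 and lowered 4 (2.83%). On chips 1 and 5 alone, cyclodextrin raised 0 and lowered 1 (0.539%), and crystals raised 6 and lowered 10 (20.8%). Crystals then cyclodextrin against crystals raised 5 and lowered 3 on chips 2, 3, 4 and 6 (4.82%) and called 0 on chips 1 and 5 (0.0499%). The median log2 change of the 56 genes was -0.11 with crystals, 0.026 with cyclodextrin and -0.030 with crystals then cyclodextrin, against -0.017, -0.017 and -0.026 over all genes.

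Among other phosphatases, 1 of 3 tested MAP kinase phosphatases rose with crystals, Dusp8 (0.86 ± 0.23 SE, adjusted p = 0.0145), which acts on JNK and p38. Of 7 tested other dual-specificity phosphatases 1 rose, Dusp13 (1.12 ± 0.15 SE, adjusted p = 6.76e-05). Dusp13 was detected on 5 of 5 crystal arrays and 2 of 5 untreated arrays, and Dusp8 on 5 and 4. Both remained called after crystals then cyclodextrin, Dusp8 at 0.71 (adjusted p = 0.0359) and Dusp13 at 0.64 (adjusted p = 0.00543). Set against cyclodextrin alone, crystals then cyclodextrin left Dusp13 at least 1.5-fold higher (adjusted p = 0.00136), a lower bound because no cyclodextrin array detected it. Of 2 other Sprouty and Spred genes tested, Spry3 rose with crystals (0.81 ± 0.24 SE, adjusted p = 0.0263), detected on 5 crystal arrays and 4 untreated arrays.

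Of 5 MAP kinase genes tested, Mapk6, an atypical ERK relative, rose with crystals (1.32 ± 0.30 SE, adjusted p = 0.00460) and Mapk14, the main p38 kinase, fell (-0.89 ± 0.16 SE, adjusted p = 6.37e-04). Both kept that direction after crystals then cyclodextrin, at 1.38 (adjusted p = 0.00292) and -0.52 (adjusted p = 0.0220), and Mapk14 was also lower than with cyclodextrin alone (-0.68, adjusted p = 0.00764). Among 5 MAP kinase kinases, Map2k3, which activates p38, fell with crystals (-0.44 ± 0.15 SE, adjusted p = 0.0490) and was lower in crystals then cyclodextrin than in cyclodextrin (-0.50, adjusted p = 0.0383). Of 9 upstream kinases, Map3k14, an activator of the alternative NF-kappa B route, and Map3k11 fell with crystals (-1.06 and -0.51, adjusted p = 0.0159 and 0.0212). Crystals then cyclodextrin lowered Map3k14 (-1.28, adjusted p = 0.00406), Map3k11 (-0.54, adjusted p = 0.0142) and Araf (-0.35, adjusted p = 0.0410). In the Ras module of 8, Rasa1, which switches Ras off, fell with crystals (-0.58, adjusted p = 0.00720) and with crystals then cyclodextrin (-0.73, adjusted p = 0.00123).

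Kinases activated by MAP kinases and early genes moved in both directions. Rps6ka5, a histone kinase downstream of ERK and p38, fell by 1.86 on the log2 scale with crystals (adjusted p = 5.73e-06) and by 1.52 with crystals then cyclodextrin (adjusted p = 4.52e-05), and its change against cyclodextrin was -1.31 (adjusted p = 2.47e-04). Crystals then cyclodextrin raised Mapkapk2, which carries p38 signals to cytokine transcripts (1.02, adjusted p = 0.0360), and lowered Rps6ka3 (-0.54, adjusted p = 0.0145). Of 11 early genes tested, the transcription factor gene Egr2 rose with crystals (1.73 ± 0.43 SE, adjusted p = 0.00866) and with crystals then cyclodextrin (1.80, adjusted p = 0.00551). Fos fell with crystals (-1.25, adjusted p = 2.00e-04) and with crystals then cyclodextrin (-0.92, adjusted p = 0.00220), and Fosl2 fell in both (-1.42, adjusted p = 7.15e-04, and -1.30, adjusted p = 0.00125). Fosl2 was also the 1 gene of the 56 called with cyclodextrin alone without a block (-1.05, adjusted p = 0.0467), where 5 were called with the set block. Fos was lower after crystals then cyclodextrin than after cyclodextrin (-0.98, adjusted p = 0.00280).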

How the data were processed

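The deposited bead signals, intensity on a linear scale per the file headers, and the deposited detection p-values against negative control beads were the starting point. The authors' deposited value table is in log2 units. Quantile normalised log2 bead signals, shifted for every probe until 5 sets of 4 arrays shared 1 mean, recomputed it to within 0.0185, and all 20 of 20 arrays matched their own column. The submitters' processing notes name Partek and give no version. Chip numbers follow the labels' array identifiers.

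With limma 3.58.1 in R 4.3.3, neqc corrected the background, added 16 to every signal and quantile normalised before the log2 step. The added 16 shrinks the changes of dim probes. Probes with 1 annotated symbol and a detection p below 0.05 on 5 or more arrays were kept, and the detected probe of highest mean stood for its gene. A linear model of the 4 groups (lmFit, contrasts.fit, eBayes) was fitted over 10018 genes without a block, two-sided, with Benjamini-Hochberg adjustment over all genes. A value after ± is its standard error (SE). The difference between chip batches was tested in the same model with batch terms. A lower-bound fold uses, for each array of the lower group, the larger of its lowest detected signal and the probe's own value.

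Named genes were all members, at most 3 called genes of each pathway list with the largest change, and the 3 genes of highest Pearson r with each member. The members, the lists and the sets as a block were chosen with earlier results of these data known. Arrays of the same replicate number did not deviate together (median correlation -0.200, above 0.1 in 8 of 30 pairs), whereas arrays of the same set did (median 0.528, 27 of 30 pairs). Arrays of the same set also share chip batch and inferred sex, and the part of each in this correlation was not tested. The highest correlation of any 2 arrays was 0.995 and 0 pairs were identical. Alternatives covered background correction, normalisation, the authors' table, detection filters, all probes, blocks by chip, set and replicate, each chip batch alone, only the groups compared, and arrays left out. Motifs were searched with Python 3.11.15 in RefSeq promoters of GRCm38.p6. Probe positions within genes are not given here.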

Additional observations from a re-analysis of the deposited data

Results flagged for a closer look

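Between the 3 arrays per group on chips 1 and 5 and the 2 per group on chips 2, 3, 4 and 6, 7 changes differed at an adjusted limma p of the difference below 0.05. The batches also differ in inferred sex, and the part of either was not tested. All differences below are chips 1 and 5 minus the other chips, on the log2 scale.

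Dusp2 differed by -2.43 in cyclodextrin against untreated cells (0.96 and 3.38, adjusted p = 0.00205) and by -1.82 in crystals then cyclodextrin against untreated cells (0.56 and 2.38, adjusted p = 0.0168). Dusp16 differed by -1.10 in the first comparison (0.69 and 1.79, adjusted p = 0.0350) and by -1.03 in the second (0.20 and 1.23, adjusted p = 0.0373). It also differed by -1.09 in crystals then cyclodextrin against crystals (0.085 and 1.17, adjusted p = 0.0388). Dusp5 differed by -1.77 in cyclodextrin against untreated cells (-1.56 and 0.22, adjusted p = 0.0384) and by -1.94 in crystals then cyclodextrin against untreated cells (-1.76 and 0.17, adjusted p = 0.0189).

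No group of 5 arrays held a value far from the others by Dixon's check at 0.71, in 0 of 32 groups of the 8 genes.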

How the results depend on the processing

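Of the changes of single genes recomputed under other settings, 1432 kept direction and side of the threshold, 75 lost a call, 45 gained one and 24 changed sign, and where no value above shows a cause, the cause was not tested. Without any block the counts of called genes among the 8 were 5 for crystals, 2 for cyclodextrin and 4 for crystals then cyclodextrin, each against untreated cells, then 0 against crystals, 1 against cyclodextrin and 0 for the interaction. In the crystal comparison 1 was called with scale normalisation, 3 without a detection filter and 3 without the 3 arrays of lowest signal. On chips 2, 3, 4 and 6 alone 1 was called, Dusp1, against 2.83% of all genes. In the cyclodextrin comparison 1 was called without background correction, without a detection filter or without the 3 arrays of lowest signal. There were 0 with only the groups compared and 5 with the set block (4.12% of all genes) or the authors' table with it. On chips 2, 3, 4 and 6 alone 6 were called, against 7.10% of all genes. Crystals then cyclodextrin against untreated cells gave 2 without a detection filter or with the chip block. Against crystals it gave 1 with the set block, the authors' table, the chip block or chips 1 and 5 alone. On chips 2, 3, 4 and 6 alone it gave 4, against 4.82% of all genes. Against cyclodextrin it gave 4 with the authors' table, 3 with the set block, 2 with all detected probes or chips 1 and 5 alone, and 0 with scale normalisation, the chip block or chips 2, 3, 4 and 6 alone. Leaving out each array gave 1 to 5 for crystals, lowest without cc replicate 1, 0 to 3 for cyclodextrin, 2 to 4 for crystals then cyclodextrin, 0 to 0 against crystals, 1 to 3 against cyclodextrin and 0 to 0 for the interaction. The cyclodextrin count was 0 without con replicate 2, con replicate 3 or CD replicate 1. With the replicate number as a block the counts were 5, 2, 4, 0, 1 and 0, so the block changed no count, and the numbers did not pair the arrays.

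Signs turned mostly in changes that had not passed. Crystals then cyclodextrin against crystals on chips 1 and 5 alone gave -0.11 for Dusp1, -0.11 for Dusp2, -0.11 for Dusp5 and 0.17 for Dusp6, the chip block gave 0.036 for Dusp6, and dropping the 3 arrays of lowest signal gave -0.081 for Dusp5. Against cyclodextrin the chip block gave 0.31 for Dusp5 and 0.15 for Dusp6, and chips 2, 3, 4 and 6 alone gave 0.14 for Dusp6. On those chips Dusp5 was 0.22 with cyclodextrin and 0.17 with crystals then cyclodextrin against untreated cells, where the second was a call without a block, and Dusp3 was -0.14 in that last comparison. The interaction of Dusp3 was -0.012 with scale normalisation and -0.0075 on chips 1 and 5, and that of Dusp1 was 0.24 on the other chips. Leaving out 1 array gave -0.017 to 0.22 for Dusp1 and -0.040 to 0.087 for Dusp5 against crystals, -0.18 to 0.12 for Dusp6 against cyclodextrin and -0.19 to 0.041 for the interaction of Dusp1.

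Counts over all genes moved too. The 1750 genes called with crystals became 653 with scale normalisation, 2772 with the set block, 2873 with the authors' table and 284 on chips 2, 3, 4 and 6. They became 1536 without a detection filter, 1739 without the 3 arrays of lowest signal and 1230 to 1788 with 1 array left out. The 113 genes of cyclodextrin became 109 without background correction, 80 without a detection filter and 407 with the authors' table. Without the 3 arrays of lowest signal there were 46. The 113 genes also became 48 with scale normalisation, 53 with only the groups compared and 413 with the set block. They became 711 on chips 2, 3, 4 and 6, and 41 to 124 with 1 array left out. For crystals then cyclodextrin 2025 became 1791 without a detection filter, 1149 with the chip block and 1557 to 2085 with 1 array left out. Against crystals, 0 became 180 (set block), 157 (authors' table), 1 (chip block), 5 (chips 1 and 5) and 483 (the other chips). With 1 array left out it was 0 to 14. Against cyclodextrin, 922 became 1970 (authors' table), 1858 (set block), 941 (all detected probes) and 1205 (chips 1 and 5). It was 266 with scale normalisation, 223 with the chip block, 206 on the other chips and 599 to 1108 with 1 array left out.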
